A study of Canis lupus familiaris with 7 samples.

Results

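The genes of epithelial to mesenchymal transition (EMT) described here are transcription factors of the TWIST, SNAI, ZEB and PRRX families and classical cadherins. They were taken from the authors' expression table by exact gene symbol, and the rule uses no measured value, although earlier results of these data were known when the symbols were chosen. Of the 10 symbols, 8 have a row among the 24580 genes listed, namely the 6 transcription factors *TWIST2*, *SNAI1*, *SNAI2*, *ZEB1*, *ZEB2* and *PRRX1* and the 2 cadherins *CDH1* and *CDH11*. No row carries the symbol *TWIST1* or *CDH2*, and these genes were not analysed here. All 8 reached the mean of at least 1 FPKM (fragments per transcript length and number of mapped fragments) needed for testing. *TWIST2* did so through 1 tumor sample, T3: its mean was 2.72 FPKM over the 7 samples and 0.641 FPKM without T3.

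RNA came from dogs with osteosarcoma (OSA), a tumor of bone. The 3 OSA tumor samples (T1, T3 and T10) were pieces of tumor whose diagnosis was made by histopathology, and the 4 non-tumor samples (N1, N3, N8 and N9) were pieces of grossly non malignant bone cut next to a tumor. Tissue was taken at amputation or just after euthanasia. No treatment, breed, sex or age is given in the labels for either group. Both kinds are whole tissue, so a lower level from fewer cells of a type cannot be told apart from less RNA per cell. The labels call the non-tumor tissue matched but do not say that a shared number, as in N1 and T1, marks 1 dog, and p-values measure only the spread between these samples.

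In EMT, cells lose the adhesion of an epithelium and take on the motile shape of mesenchyme. The zinc finger factors SNAI1 (Snail) and SNAI2 (Slug), the ZEB factors and the basic helix-loop-helix factors TWIST1 and TWIST2 bind E-boxes and repress the gene of E-cadherin, *CDH1*, among others. PRRX1 is a paired-related homeobox factor of limb and craniofacial mesenchyme. Bone cells are mesenchymal from the start: osteoblasts carry cadherin-11, the product of *CDH11*, also called OB-cadherin, and normally have little E-cadherin.

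The sample N1 stood apart from the other non-tumor samples. Across the 13507 tested genes, which are not independent replicates, its log2(FPKM + 1) values had a Pearson correlation of 0.917 with T1, the highest of all pairs of samples (the next was 0.812, N8 with N9), and of 0.572 to 0.670 with the other non-tumor samples. The log2 fold change of each of the 8 genes is therefore also given without N1. The table holds no counts. Low FPKM values rise in whole-fragment steps, and relative to N1 the fragments that stand behind 1 FPKM ran from 0.543 in N8 to 1.44 in T10. FPKM summed to between 539648 (N1) and 1752340 (N8) per sample. Groups were compared on log2(FPKM + 1) with limma, and a gene was called when the absolute log2 fold change was 1 or more and the unadjusted p below 0.05. By this rule 6.86% of the tested genes were called, 3.28% as higher and 3.58% as lower in tumor. By limma, 0 genes reached an adjusted p under 0.05 and 927 an unadjusted p under 0.05.

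Of the 8 genes, 3 were higher in OSA tumor by this rule, *SNAI2*, *PRRX1* and *CDH11*, and 0 were lower, against 3.28% and 3.58% of all tested genes. The other 5, *SNAI1*, *TWIST2*, *ZEB1*, *ZEB2* and *CDH1*, did not pass, *TWIST2* being in the fit only through T3. The median log2 fold change was 1.48 over the 8 genes, 1.5 without *TWIST2*, and -0.02 over all tested genes. The smallest adjusted p among the 8 was 0.693 by limma. For each gene a two-sided exact permutation test enumerated all 35 assignments of 3 of the 7 samples to tumor. Its p is the share of these 35 assignments whose absolute difference of means reached the observed value, so it moves in coarse steps. When the FPKM of each sample were rescaled to the same sum, the median of all tested genes moved to 0.12 and the share of higher genes among those that passed fell from 47.8% to 35.3%; the same 3 of the 8 genes passed under this and both other scalings.

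**Figure D1:**
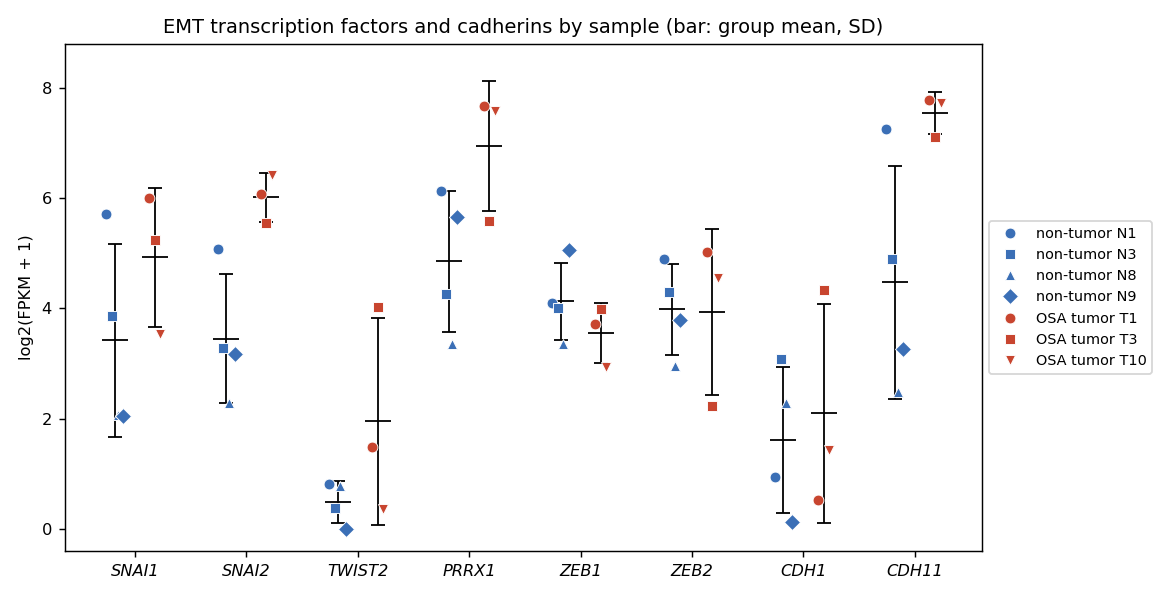
Level of each gene as log2(FPKM + 1) on the vertical axis, with 1 point per sample (blue, non-tumor; red, OSA tumor) and bars for the group mean and SD. Every tumor sample lies above every non-tumor sample in SNAI2, N1 is the highest non-tumor sample in SNAI1, SNAI2 and CDH11, and T3 is the highest sample in TWIST2 and CDH1.

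*SNAI2* encodes Slug, a zinc finger repressor of the Snail family found in neural crest and mesenchymal cells. Its gene (ENSCAFG00000006638) spans chromosome 29 from 1152797 to 1156653 (CanFam3.1). It read 66.7, 45.6 and 85.2 FPKM in T1, T3 and T10, and 33.0, 8.76, 3.85 and 7.99 FPKM in N1, N3, N8 and N9. All 3 tumor samples were above all 4 non-tumor samples, and the lowest of them, T3, was 1.38 times N1. Of all tested genes, 3.04% had every tumor above every non-tumor sample, 2.81% had every tumor below, and 5.85% had one or the other. Of the 8 genes, *SNAI2* was the only one whose groups did not overlap. Tumor samples averaged 65.8 ± 19.8 FPKM (SD, n = 3) and non-tumor samples 13.4 ± 13.2 FPKM (SD, n = 4), or 6.87 ± 2.64 FPKM without N1. By limma, tumor minus non-tumor on the log2 scale was 2.56 (standard error 0.66, 95% confidence interval 1.07 to 4.05, unadjusted p = 0.00350; exact permutation p = 0.0571). The difference was larger than the spread within either group. It kept the call in each of the 7 fits with 1 sample left out, at 2.17 without N8 and 3.11 without N1.

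*SNAI1*, which encodes Snail, a repressor of *CDH1*, did not separate the groups. Its gene (ENSCAFG00000011499) lies on chromosome 24 from 36498135 to 36503604. It stood at 62.9, 36.8 and 10.6 FPKM in tumors T1, T3 and T10, against 51.6, 13.6, 3.19 and 3.14 FPKM in N1, N3, N8 and N9. N1 lay between T1 and T3, and T10 lay below both N1 and N3. The means of 36.8 ± 26.1 FPKM (SD, n = 3) and 17.9 ± 23 FPKM (SD, n = 4) gave a log2 fold change of 1.5 by limma (standard error 0.96, 95% confidence interval -0.66 to 3.66, unadjusted p = 0.151; exact permutation p = 0.314). Without N1 it passed, at 2.27 (unadjusted p = 0.0194 from limma).

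The balance of both Snail genes differed between samples. FPKM is scaled to transcript length, so levels can be set side by side. *SNAI2* was at 8.02 times the FPKM of *SNAI1* in T10, 1.24 times in T3 and 1.06 times in T1. In non-tumor samples the ratio was 2.54 in N9, 1.21 in N8, 0.646 in N3 and 0.639 in N1. T10 was therefore the sample with the highest *SNAI2* and the lowest *SNAI1* of the tumor samples. On the log2(FPKM + 1) scale the difference *SNAI2* minus *SNAI1* was 1.09 ± 1.56 (SD, n = 3) in OSA tumor and 0.03 ± 0.82 (SD, n = 4) in non-tumor samples, a gap smaller than the spread between tumor samples.

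*TWIST2* (ENSCAFG00000012469), whose product Dermo-1 marks dermal and skeletal mesenchyme, was at a low level outside T3. Its listed interval on chromosome 25, from 49165641 to 49166123, is only 483 bases long. T3 was at 15.2 FPKM, T1 at 1.81 and T10 at 0.280, against 0.748 in N1, 0.295 in N3 and 0.714 in N8, and it was listed at 0 in N9. T3 held 87.9% of the tumor sum. With FPKM multiplied by relative depth, N3, N8 and T10 came out at 1.01, 1 and 1.04 times the smallest such value, N1 at 1.93, T1 at 4.36 and T3 at 48.5 times. If that smallest step is 1 fragment, the values outside T3 rest on a handful of fragments, and a difference between those samples was not detectable at this depth. The difference of the group means on the log2(FPKM + 1) scale was 1.47, or 1.57 without N1 and 0.43 without T3. As *TWIST2* entered the fit only because of T3, no test is given.

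*PRRX1* (ENSCAFG00000015002, chromosome 7 from 28065514 to 28137504) was the most abundant of the 6 transcription factors in the means of both groups. It stood at 203, 46.9 and 191 FPKM in tumors T1, T3 and T10, against 69.4, 18.2, 9.20 and 49.7 FPKM in N1, N3, N8 and N9. T1 and T10 exceeded every non-tumor sample, while T3 lay below N1 and N9. In T1 it ranked 280th and in T10 366th of all 24580 genes by FPKM. Tumor samples averaged 147 ± 86.7 FPKM (SD, n = 3) and non-tumor samples 36.6 ± 27.9 FPKM (SD, n = 4), or 25.7 ± 21.3 FPKM without N1. By limma the log2 difference was 2.09 (standard error 0.80, 95% confidence interval 0.29 to 3.89, unadjusted p = 0.0275; exact permutation p = 0.143). The call rested on single samples: *PRRX1* did not pass without N3 (1.89), N8 (1.59), T1 (1.73) or T10 (1.77), and passed without N1 (2.52), N9 (2.36) or T3 (2.77).

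Its paralog *PRRX2*, from the fixed list of other EMT regulators, had 57.8 FPKM in T1, 47.3 FPKM in T3, 13.1 FPKM in T10 and, in the order N1, N3, N8 and N9, 33.7, 4.05, 1.46 and 1.09 FPKM. It passed by limma (log2 fold change 2.64, unadjusted p = 0.0238) but not without N3, N8, N9, T1 or T3 (2.18 to 2.60). *PRRX1* was at 14.6 times the FPKM of *PRRX2* in T10, 3.5 times in T1 and 0.991 times in T3, so that T3 was the sample in which both paralogs stood at about one level. Among non-tumor samples the ratio ran from 2.06 in N1 to 45.6 in N9.

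The ZEB genes encode large zinc finger and homeobox factors, which repress *CDH1* in epithelia and are also used by lymphoid, myeloid and neural cells. *ZEB1* (ENSCAFG00000004023) lies on chromosome 2 from 15302325 to 15481483. It read 12.2, 14.9 and 6.68 FPKM in T1, T3 and T10, and 16.2, 15.2, 9.17 and 32.2 FPKM in N1, N3, N8 and N9. The groups overlapped, with the lowest value in T10 and the highest in N9. Means were 11.3 ± 4.19 FPKM (SD, n = 3) and 18.2 ± 9.83 FPKM (SD, n = 4), and by limma tumor minus non-tumor on the log2 scale was -0.58 (standard error 0.53, 95% confidence interval -1.78 to 0.62, unadjusted p = 0.305), or -0.59 without N1. *ZEB1* had the narrowest range of the 8 genes, with its highest sample at 4.82 times its lowest.

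*ZEB2* (ENSCAFG00000005497, chromosome 19 from 46424771 to 46466691) stood at 31.6, 3.67 and 22.5 FPKM in tumors T1, T3 and T10, against 28.8, 18.6, 6.73 and 12.8 FPKM in N1, N3, N8 and N9. T1 and N1 were the 2 highest samples and T3 the lowest of all. By limma the log2 difference was -0.05 (standard error 0.75, 95% confidence interval -1.73 to 1.64, unadjusted p = 0.95), and its sign turned under 2 of the 3 scalings and without N1 (0.26), N3 or T3. *ZEB1* was at 4.06 times the FPKM of *ZEB2* in T3 but at 0.386 times in T1 and 0.297 times in T10. In non-tumor samples this ratio ran from 0.563 in N1 to 2.51 in N9, inside the range of the tumors.

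**Figure D2:**
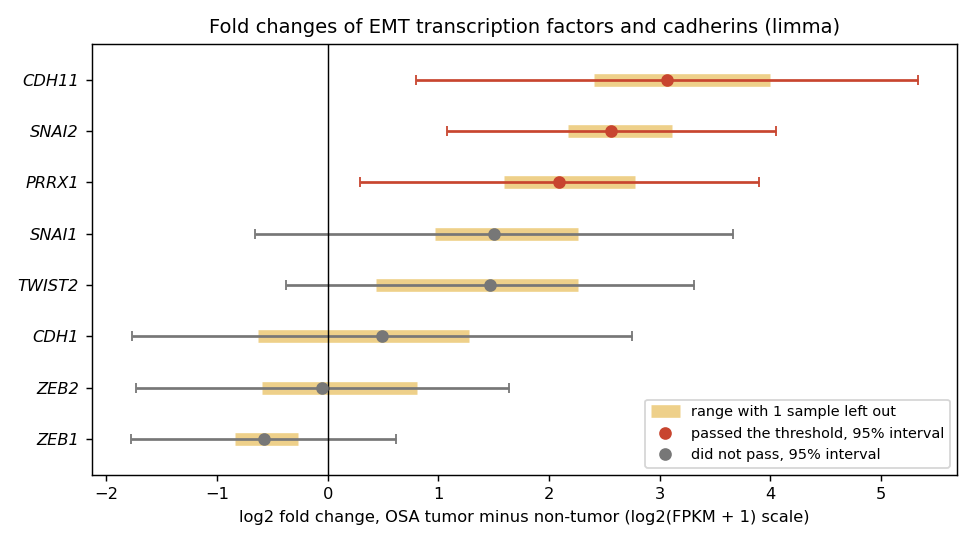
The log2 fold change of each gene, OSA tumor minus non-tumor on the log2(FPKM + 1) scale, with its 95% confidence interval from limma (line) and the range of the 7 fits that each left out 1 sample (broad bar). The intervals of CDH11, SNAI2 and PRRX1 lie above 0, and those of SNAI1, CDH1, ZEB2 and ZEB1 include 0. TWIST2 is drawn although T3 alone brought it into the fit, and its interval is not read.

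*CDH11* (ENSCAFG00000020425, chromosome 5 from 84076740 to 84124245) was the most abundant of the 8 genes in OSA tumor. The tumors T1, T3 and T10 were at 220, 136 and 212 FPKM, ranking between 256th and 667th of all genes in these samples. The non-tumor samples N1, N3, N8 and N9 were at 152, 28.9, 4.58 and 8.58 FPKM. The tumors lay within 1.61 times of each other, whereas the non-tumor samples ranged over 33.3 times. N1 exceeded T3, which kept the groups from separating. Tumor samples averaged 190 ± 46.2 FPKM (SD, n = 3) and non-tumor samples 48.6 ± 70.0 FPKM (SD, n = 4), or 14 ± 13.0 FPKM without N1. By limma, tumor minus non-tumor on the log2 scale was 3.07 (standard error 1.01, 95% confidence interval 0.80 to 5.33, unadjusted p = 0.0134; exact permutation p = 0.0857). It passed in all 7 fits without 1 sample, from 2.40 without N8 to 3.996 without N1.

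*CDH1*, the gene of E-cadherin, was low in most samples. It is ENSCAFG00000020305, in an interval of chromosome 5 from 80759109 to 80930552 that it shares with *CDH3*, the gene of P-cadherin. T3 was at 19.2 FPKM, T1 at 0.436 and T10 at 1.71, against 0.913, 7.5, 3.84 and 0.0964 FPKM in N1, N3, N8 and N9. T3 held 89.9% of the tumor sum, and without it the 2 remaining tumors lay within the range of the non-tumor samples. The means of 7.11 ± 10.5 FPKM (SD, n = 3) and 3.09 ± 3.35 FPKM (SD, n = 4) did not differ beyond their spread (log2 fold change 0.49 by limma, 95% confidence interval -1.77 to 2.75, unadjusted p = 0.636; exact permutation p = 0.714). The log2 fold change was -0.63 without T3, 1.28 without T1, 0.98 without N3 and 0.27 without N1.

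*CDH11* exceeded *CDH1* in all 7 samples, but by very different amounts. The ratio of FPKM was 505 in T1, 167 in N1, 124 in T10 and 89.0 in N9. It was only 7.12 in T3, 3.85 in N3 and 1.19 in N8. On the log2(FPKM + 1) scale the difference was 5.44 ± 2.37 (SD, n = 3) in OSA tumor and 2.87 ± 2.60 (SD, n = 4) in non-tumor samples, a gap of the size of the spread within the groups. N8 was the sample in which the cadherins stood closest, with the lowest *CDH11*, and T3 the tumor in which they stood closest, with the highest *CDH1*.

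Of 19 other cadherin symbols fixed as a list, 18 matched a row and 6 were tested. None of the 6 was higher and 1, *CDH5*, was lower by the rule (3.28% and 3.58% of all tested genes), with a median log2 fold change of 0.88. *CDH3* and *CDH22* reached the mean of 1 FPKM only through tumor samples, with non-tumor means of 0.552 and 0.448 FPKM, and the median was 0.27 without them. *CDH5*, the gene of the endothelial VE-cadherin, had 24.5 FPKM in T1, 1.05 FPKM in T3, 1.57 FPKM in T10 and, in the order N1, N3, N8 and N9, 19.5, 13.0, 14.1 and 42.3 FPKM. T1 lay within the non-tumor range and T3 and T10 below it (log2 fold change -2.02 by limma, unadjusted p = 0.0450). It kept its call only without T1 (-3.18) among the 7 fits, and lost it with no filter on low values (unadjusted p = 0.0636 from limma) and with quantile normalization (-1.82). The 9 endothelial markers tested were 0 higher and 3 lower, all 9 with a negative log2 fold change, and summed to between 28.2 and 111 FPKM in OSA tumor and between 84.9 and 345 FPKM in non-tumor samples; their part in the *CDH5* values was not tested. *CDH13*, which encodes the membrane-anchored T-cadherin, was at 79.0 FPKM in T10 and between 4.75 and 20.0 FPKM in the other 6 samples. *CDH15*, the muscle M-cadherin gene, was at 60.1 FPKM in T1 and 24.9 in N1, against at most 7.95 FPKM elsewhere. *CDH3*, named after its values were seen, was at 1.91, 4.48 and 1.20 FPKM in T1, T3 and T10 and at most 0.969 FPKM in non-tumor samples (N1). Every tumor sample thus lay above every non-tumor sample, as in 3.04% of all tested genes. As *CDH3* was tested only because of its tumor values, this separation is not read as a result and no test is given.

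**Figure D3:**
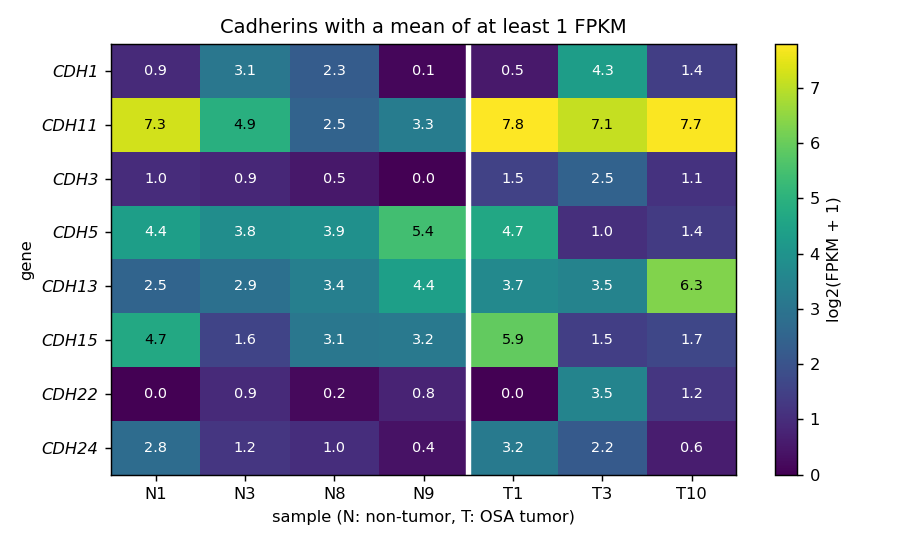
Level of the 8 cadherins with a mean of at least 1 FPKM, as log2(FPKM + 1) in colour and printed in each cell, with samples on the horizontal axis (N, non-tumor; T, OSA tumor). CDH11 is the highest cadherin of each tumor, CDH5 is low in T3 and T10, and CDH15 is high in N1 and T1.

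Some epithelial genes were, like *CDH1*, highest in T3, and others were not. Of 18 epithelial junction symbols, 16 matched and 7 were tested, with 0 higher, 0 lower and a median log2 fold change of 0.25 (3.28% of all tested genes were higher and 3.58% lower). Of these 7, 3 (*CLDN1*, *DSP* and *DSG2*) were highest in T3 and 4 in a non-tumor sample, *EPCAM* in N3 and *OCLN*, *LLGL2* and *TJP1* in N9. The genes described were the most abundant of the list by mean FPKM, a mean that T3 raises for *CLDN1* and *DSP*. *CLDN1*, a tight junction claudin, was at 89.6 FPKM in T3 and at most 6.82 FPKM in the other samples (N8). *DSP*, the gene of desmoplakin of the desmosome, was at 23.5 FPKM in T3 and at most 5.23 FPKM in the others. *TJP1*, whose product ZO-1 lies under junctions in many cell types, was the other one described, at 8.57 FPKM in T3 and 38.9 in N9. Of 11 regulators that keep epithelia, all matched and 3 were tested, with 0 higher and 0 lower (3.28% and 3.58% of all tested genes). The splicing factor gene *ESRP1*, tested only through its level in T3, was at 7.13 FPKM there and at most 1.09 in the others, *GRHL1* at 8.85 against at most 2.16, and *KLF4* was highest in T1, at 20.1 FPKM. *GRHL2*, a direct activator of *CDH1* in epithelia, was below 0.5 FPKM in all 7 samples.

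The epithelial cell markers fixed as a list (10 symbols, 8 matched, 3 tested) summed to 43.7 FPKM in T3, to 2.53 in T1 and 2.05 in T10, and to between 1.36 and 12.7 FPKM in non-tumor samples. *KRT19*, a keratin of simple epithelia, made up most of this in T3, at 33.4 FPKM, and was at 0.902 in N3 and 0.0790 in N8 and listed at 0 in the other 4 samples. *CDH3*, *KRT5*, *MUC1* and *KRT14* were also highest in T3, at 4.48, 3.28, 1.29 and 0.639 FPKM. *TP63* at 12.7 FPKM made up the N9 sum, and *KRT18* and *KRT20* were listed at 0 in all samples. The part of epithelial cells in the *CDH1* level of T3 was not tested. In the same sample *ZEB2* was lowest and *TWIST2* highest.

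**Figure D4:**
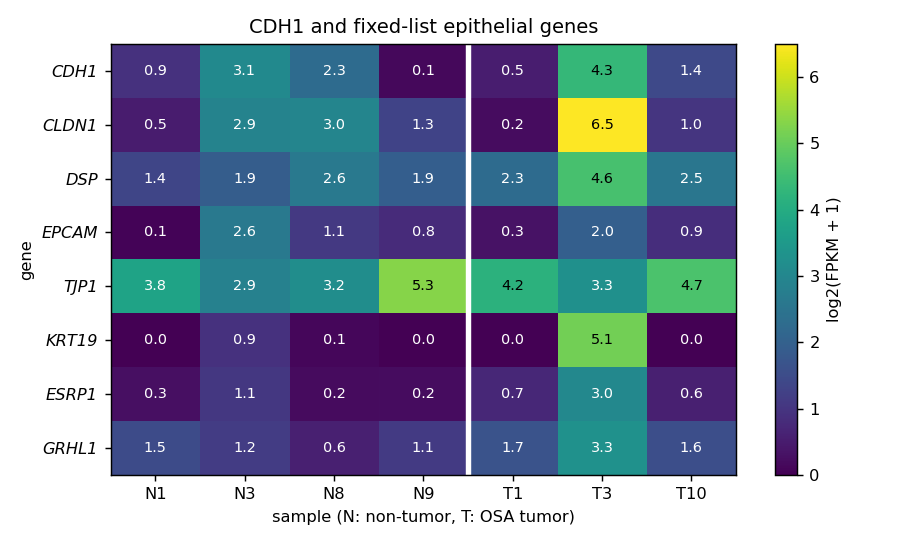
Level of CDH1 and of 7 epithelial genes from fixed lists, as log2(FPKM + 1) in colour and printed in each cell, by sample (N, non-tumor; T, OSA tumor). CDH1, CLDN1, DSP, KRT19, ESRP1 and GRHL1 are highest in T3, whereas EPCAM is highest in N3 and TJP1 in N9.

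Of 15 mesenchymal genes often read as products of EMT, 13 matched and were tested, with 3 higher and 0 lower (3.28% and 3.58% of all tested genes). All 13 had a positive log2 fold change, with a median of 1.46. *FN1*, the gene of fibronectin, read 336, 178 and 230 FPKM in T1, T3 and T10, and 116, 43.4, 15.0 and 26.3 FPKM in N1, N3, N8 and N9. These groups did not overlap (log2 fold change 2.63 by limma, unadjusted p = 0.00388), and *FN1* passed in all 7 fits without 1 sample. *LOX*, which crosslinks collagen, reached 56.2, 13.0 and 65.5 FPKM in T1, T3 and T10, and N1 at 13.3 FPKM was just above T3 (log2 fold change 2.29 by limma, unadjusted p = 0.00622); it passed in all 7 fits without 1 sample. *ITGB1*, the beta 1 integrin gene, was highest in T10 at 768 FPKM and passed (1.49), but it lost its call in 6 of the 7 fits, all but the one without T1. *VIM*, the gene of vimentin, was at 1066 to 1227 FPKM in OSA tumor and at 191 to 1155 in non-tumor samples, where N1 was the highest; its log2 fold change of 1.46 did not pass. *SPARC*, at 487 FPKM in T3 and 5332 in T1, did not pass either.

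Among 17 other regulators of EMT, 13 matched and 12 were tested, with 2 higher (*PRRX2* and *SOX9*) and 0 lower (3.28% and 3.58% of all tested genes), and a median log2 fold change of 0.65. *SOX9*, a factor of cartilage and of several epithelia, stood at 30.1, 65.6 and 24.9 FPKM in tumors T1, T3 and T10, against 14.9, 10.4, 0.454 and 1.25 FPKM in N1, N3, N8 and N9. All tumors were above all non-tumor samples (log2 fold change 2.93 by limma, unadjusted p = 0.00803), and *SOX9* passed in all 7 fits. *TGFB1*, the ligand that commonly starts EMT, was at 174 FPKM in T1 and 113 in N1 and between 5.96 and 33.3 FPKM in the other samples, and did not pass (0.81). *TGFBR2*, its type II receptor, ran from 28.5 to 59.9 FPKM over all samples, and *HIF1A* from 20.5 to 64.9 FPKM. Among 12 catenin and adhesion symbols, 7 matched and 5 were tested, with 1 higher, *CTNNB1*, and 0 lower (3.28% and 3.58% of all tested genes). *CTNNB1*, the gene of beta-catenin, which binds the cytoplasmic tail of cadherins, reached 253, 1167 and 648 FPKM in T1, T3 and T10, against 110 to 396 FPKM in non-tumor samples, the highest in N1. Its call (1.70) held only without N1 or T1 among the 7 fits, and not with the FPKM rescaled to the same sum (1.90). *CTNNA1*, highest in T3 at 92.6 FPKM, and *VCL*, from 24.3 to 51.7 FPKM, did not pass.

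The genes with the most similar pattern were sought as the smallest root mean square difference of centred log2(FPKM + 1) over the 7 samples, given as a description. For *SNAI2* these were *FN1* (0.29) and *P4HA2* (0.30), beside a spread of *SNAI2* itself of 1.5. For *SNAI1* they were *S1PR3* (0.16) and *MMP11* (0.21), beside a spread of 1.52, each high in N1, T1 and T3 and low in N8 and N9. For *CDH11* they were *FGFR2IIIC* (0.40) and *CADM1* (0.41), beside a spread of 2.06, and for *PRRX1* *NREP* (0.34) and *FLRT3* (0.39), beside 1.47. *CDH1* was followed most closely by *GALNT12* (0.34) and *CD44* (0.45), beside 1.39; *CD44*, a hyaluronan receptor, was at 271 FPKM in T3 and 104 in N3. The nearest to *ZEB1* were *ELP3* (0.17) and *POLR3C* (0.21), beside 0.62, and to *ZEB2* *CCDC18* (0.30) and the basement membrane gene *NID1* (0.31), beside 0.97. *TWIST2* was nearest to *ARSI* (0.33) and to 1 of 2 rows with the symbol *RPL4* (ENSCAFG00000017309, 0.33), both of which were high in T3 alone.

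By mean log2(FPKM + 1), the order of levels in OSA tumor was *CDH11* (7.54), *PRRX1* (6.94), *SNAI2* (6.02), *SNAI1* (4.93), *ZEB2* (3.93), *ZEB1* (3.55), *CDH1* (2.10) and *TWIST2* (1.96). No gap between neighbours in this order exceeded the larger of their SDs. In non-tumor samples the order was *PRRX1* (4.85), *CDH11* (4.48), *ZEB1* (4.13), *ZEB2* (3.98), *SNAI2* (3.45), *SNAI1* (3.42), *CDH1* (1.61) and *TWIST2* (0.49). There the gap of 1.82 between *SNAI1* and *CDH1* was the only one larger than both SDs. By these means the ZEB genes stood above the SNAI genes in the non-tumor means and below them in the tumor means. Single samples departed from this order. In N1 both SNAI genes exceeded both ZEB genes, and in T10 *SNAI1* lay below *ZEB2*.

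Markers of other cell types differed between the groups; 3.28% of all tested genes were higher and 3.58% lower. Skeletal muscle markers (14 tested, 0 higher, 12 lower) summed to 17.3 to 33.7 FPKM in OSA tumor, 99.6 FPKM in N1, and 1385 to 107103 FPKM in the other non-tumor samples. Erythroid markers (11 tested, 8 lower) summed to 32.8 to 118 FPKM in OSA tumor, 38.0 in N1 and 291 to 4702 in the others. Granulocyte markers (8 tested, 7 lower) summed to 67.1 to 1973 FPKM in OSA tumor, 698 in N1 and 2038 to 67338 in the others. Adipocyte markers (5 tested, 4 lower) summed to 11.3 to 15.6 FPKM in OSA tumor, 15.2 in N1 and 92.7 to 342 in the others. Osteoblast markers (10 tested, 1 higher, 0 lower) summed to 972 to 3767 FPKM in OSA tumor, 1639 in N1 and 117 to 1285 in the others, and chondrocyte markers (7 tested, 2 higher) to 77.6 to 984 FPKM in OSA tumor, 481 in N1 and 3.98 to 24.5 in the others. Bone markers were thus present in the non-tumor samples, lowest in N8, the sample with the lowest *CDH11*, *SNAI2* and *PRRX1*. The macrophage, osteoclast, lymphocyte, pericyte and smooth muscle, and cell cycle lists had 0 genes past the rule in either direction. The part of these cell types in the levels of *SNAI2*, *PRRX1* and *CDH11* was not tested.

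**Figure D5:**
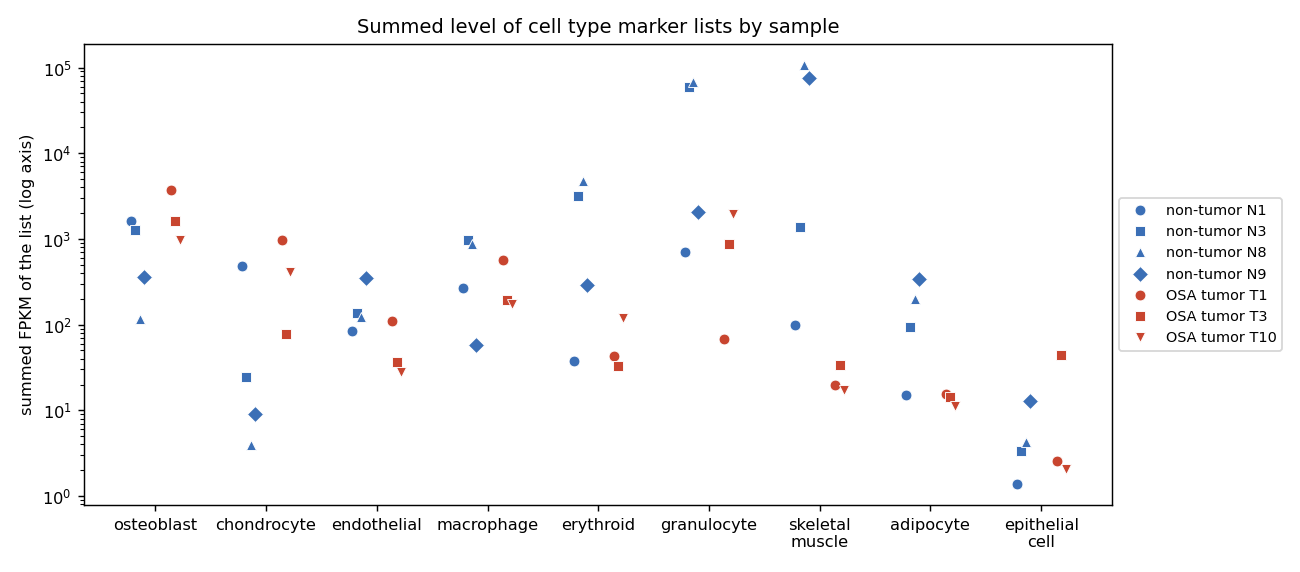
Summed FPKM of marker lists on a log axis, with 1 point per sample (blue, non-tumor; red, OSA tumor). N3, N8 and N9 lie far above the tumors in muscle, with N8 at 107103 FPKM, N1 lies nearer the tumors in several lists, and T3 is the highest sample in epithelial markers.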

How the data were processed

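Canine OSA tumor (n = 3) and non-tumor bone (n = 4) RNA was sequenced on an Illumina HiSeq platform from stranded paired-end libraries. After trimming (Trim Galore) and alignment to CanFam3.1 (Tophat2, Ensembl iGenomes annotation), the authors derived the deposited FPKM of each gene and sample by Cufflinks/Cuffdiff; tool versions, the use of strand and the normalization between libraries are not given in the sources used here. A second deposited table, with the authors' own group values, fold changes and p-values, served for gene intervals only; 1 was added to each start. All 7 sample columns were used, and 0 were left unused. Relative depth was read from the commonest ratio of values under 1 FPKM between samples; in 21 of 21 pairs, those with N1 by construction, the direct ratio was within 0.03 (log2) of the one through N1.

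A pseudocount of 1 was added to FPKM before the log2. The 13507 genes averaging 1 FPKM or more over the 7 samples entered the limma 3.58.1 fit (R 4.3.3), with empirical Bayes moderation, a mean-variance trend and Benjamini-Hochberg adjustment; the fit was tested on simulated data. Exact permutation tests used Python 3.11.15. Intervals and depth cover only what these 7 samples allow. The genes and lists were chosen with earlier results of these data known. Named genes were the 10 symbols, list genes past the threshold, the 3 list genes with the highest mean FPKM, and the 2 genes nearest in pattern to each. *EPCAM*, *OCLN*, *LLGL2*, *DSG2*, *GRHL2*, *CDH3*, *KRT5*, *KRT14*, *MUC1* and all genes under other observations were named after their values were seen.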

Additional observations from a re-analysis of the deposited data

Results flagged for a closer look

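One of the 33 sets of 4 non-tumor values examined had a sample far from the others. The summed level of the epithelial junction genes was 57.9 FPKM in N9 (5.88 as log2 of the sum plus 1) and between 28.5 and 31.2 FPKM in N1, N3 and N8. Its gap to the nearest sample was 0.871 of the whole range, over the 95% critical value of Dixon's test for 4 samples. *TJP1* alone gave 38.9 FPKM of the N9 sum. Chance gives such a gap in about 1 in 20 sets.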

How the results depend on the processing

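Of the 8 genes, the 3 that passed also passed under both other pseudocounts, both other filters, all 3 scalings, without the trend, with sample weights and with the sample number as a random replicate block, under which 4 genes were counted, the added one being *TWIST2*, which is in the fit only through T3 and whose calls are not read. With the fixed replicate block over 4 samples, *CDH11* (1.36) was lost, as were *LOX* (1.40), *PRRX2*, *ITGB1*, *CTNNB1* and *CDH5* among the list genes that passed, while *SOX9* and *FN1* passed. The number passing was 2 to 4 with 1 sample left out. *ZEB2* (-0.05) turned to 0.10 rescaled to the same sum, 0.042 with quantile normalization, 0.23 with sample weights, 0.26 without N1, 0.06 without N3 and 0.81 without T3 (-0.59 to 0.81 with 1 sample left out), and *CDH1* (0.49) to -0.001 without N9 and -0.63 without T3 (-0.63 to 1.28). *TWIST2* had no value with the filter of 1 FPKM in 3 samples.

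Over all genes, 926 passed, 1857 with sample weights, 241 with the fixed replicate block, and 319 (without N8) to 1997 (without N1) with 1 sample left out, with 424 without T10 and 603 without T3. The other cadherins passing (1) were 2 with the filter of 1 FPKM in 3 samples and with the random replicate block, 0 with the fixed block, and 0 to 2 with 1 sample left out. The catenins (1) were 0 when rescaled to the same sum and with either block, and 0 to 1 with 1 sample left out. The other EMT regulators (2) were 4 with sample weights, 1 with the fixed block, and 1 to 3 with 1 sample left out. The epithelial junction genes (0) were 1 with the random block. The mesenchymal genes (3) were 6 with sample weights and 2 to 5 with 1 sample left out. The cause of these changes was not tested. Same-numbered samples correlated in their deviations from the group means at 0.422 (number 1) and 0.211 (number 3); with 2 such pairs, and no label tying a number to a dog, they were not treated as pairs. The absence of counts limits what can be said of low values such as those of *TWIST2* and *CDH1*.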

Other observations

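Some EMT regulators that did not pass the threshold shared a pattern over samples. They were picked after their values were seen. N1 and T1 were also the most correlated pair of samples over all tested genes (Pearson correlation 0.917). *FOXC2*, a forkhead factor of mesoderm, was at 30.7 FPKM in T1 and 16.2 in N1, and at most 4.05 FPKM in the other 5 samples. *GSC*, the goosecoid homeobox gene, was at 13.5 FPKM in N1 and 12.4 in T1, and at most 1.51 FPKM in the others. *TCF3* was at 31.1 FPKM in N1 and 28.6 in T1, and at most 9.40 FPKM in the others. *SNAI1*, *ZEB2* and *TGFB1* were also highest in T1 and N1. Among the 8 genes, N1 was the highest non-tumor sample in 6 and fell between the lowest and highest tumor in 6. Other non-tumor samples also fell in that range in *TWIST2*, *SNAI1*, *ZEB2*, *PRRX1* and *CDH1*. Only in *CDH11* was N1 alone there.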
